A study of Mus musculus with 9 samples.

Results

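The retinal transcripts described here are those of 10 inflammatory signalling genes, among 23889 genes and unnamed transcripts that could be tested in the series. They are the receptor Tnfrsf12a and its ligand Tnfsf12, the cytokines Tnf and Il1b, the Toll adaptors Ticam1 and Myd88, the NF-kB inhibitors Nfkbia and Tnfaip3, and the adhesion molecules Vcam1 and Icam1. The genes were taken by symbol, and 12 of the 39429 probes on the array that were not controls carried a RefSeq accession of one of them. Tnfrsf12a and Ticam1 were chosen by their low log2 values in AAP pools, so their AAP against PBS and AAP against HAN values are given as descriptions, with no test.

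The 9 arrays measured whole retinas of adult male C57BL/6 mice whose right eyes had been injected intravitreally with AAP, HAN or phosphate-buffered saline (PBS). AAP and HAN are peptides that the series describes as binding vascular endothelial growth factor (VEGF) with high affinity, the dose is given as 1 µM with the same wording for all 3 groups, and PBS was the negative control. Retinas were taken at 7 days from 12 mice per group, and the RNA of 4 retinas went into each array, which left 3 arrays in each of the 3 groups. An array thus stands for a pool and not for a mouse, and the p-values measure the spread between pools. Neither an uninjected retina nor another time was among the samples analysed here.

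The TNF family pairs trimeric ligands with membrane receptors, and Tnfrsf12a (Fn14), the receptor for Tnfsf12 (TWEAK), is known for its induction in injured tissue. Toll-like receptors sense microbial and damage-derived molecules and signal through the adaptors Myd88 and Ticam1 (TRIF). Both routes end on NF-kB, a transcription factor that Nfkbia (IkB-alpha) holds in the cytoplasm and Tnfaip3 (A20) restrains by editing ubiquitin chains on upstream signalling proteins. NF-kB in turn induces Tnf, Il1b, both inhibitors, and Vcam1 and Icam1, which capture leukocytes at the vessel wall. In the retina these transcripts can come from microglia, Mueller glia, vessels and neurons, and in whole-retina RNA fewer cells of a type and less RNA per cell cannot be told apart.

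A value below is the log2 of a probe's processed signal minus the log2 of its array's 75th percentile, so 0 marks a probe as bright as that percentile. Values were compared between arrays for a given probe and never between probes. Of the 12 probes, 9 were well above background on all 9 arrays and represented 7 of the 10 genes. Icam1, Il1b and Tnf were not above background on all arrays of any group and were not tested.

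The receptor Tnfrsf12a and the adaptor Ticam1 were the members whose values in AAP pools and in HAN pools all stood below every PBS pool. Tnfrsf12a averaged -0.67 ± 0.16 in AAP pools, -0.40 ± 0.21 in HAN pools and 0.08 ± 0.18 in PBS pools (SD, n = 3 each). Ticam1 averaged -3.26 ± 0.07 in AAP pools, -3.14 ± 0.02 in HAN pools and -2.93 ± 0.04 in PBS pools (SD, n = 3 each). No member passed the threshold of an adjusted p under 0.05 in limma, a linear model with moderated variances fitted over all genes, in any comparison. Over all genes that threshold was passed by 0.00419% in AAP against PBS, 0.00419% in HAN against PBS and 0% in AAP against HAN, so nearly nothing on the array passed it.

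By the ranges of the 3 pools of a group, in AAP against PBS 4 of the 7 tested members (Tnfrsf12a, Ticam1, Vcam1 and Nfkbia) lay wholly below PBS, where 5.53% of all genes did; 2 of these 4 are the genes picked for this, and nothing is read from them. In HAN against PBS 4 of 7 (Tnfrsf12a, Ticam1, Myd88 and Tnfsf12) lay wholly below PBS, where 10.4% of all genes did. Tnfrsf12a and Ticam1 had been picked against the same PBS pools, and Tnfsf12 counts through its brighter probe alone, since its other probe overlapped PBS. In AAP against HAN only Ticam1 of the 7 did not overlap, where 6.82% of all genes lay wholly below HAN. Of the 5 tested members that were not picked, limma took 1 (Vcam1) at an unadjusted p under 0.05 in AAP against PBS, against 6.78% of all genes. The corresponding figures were 0 of 5 and 9.66% of all genes in HAN against PBS, and 0 of 5 and 8.54% of all genes in AAP against HAN.

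**Figure D1:**
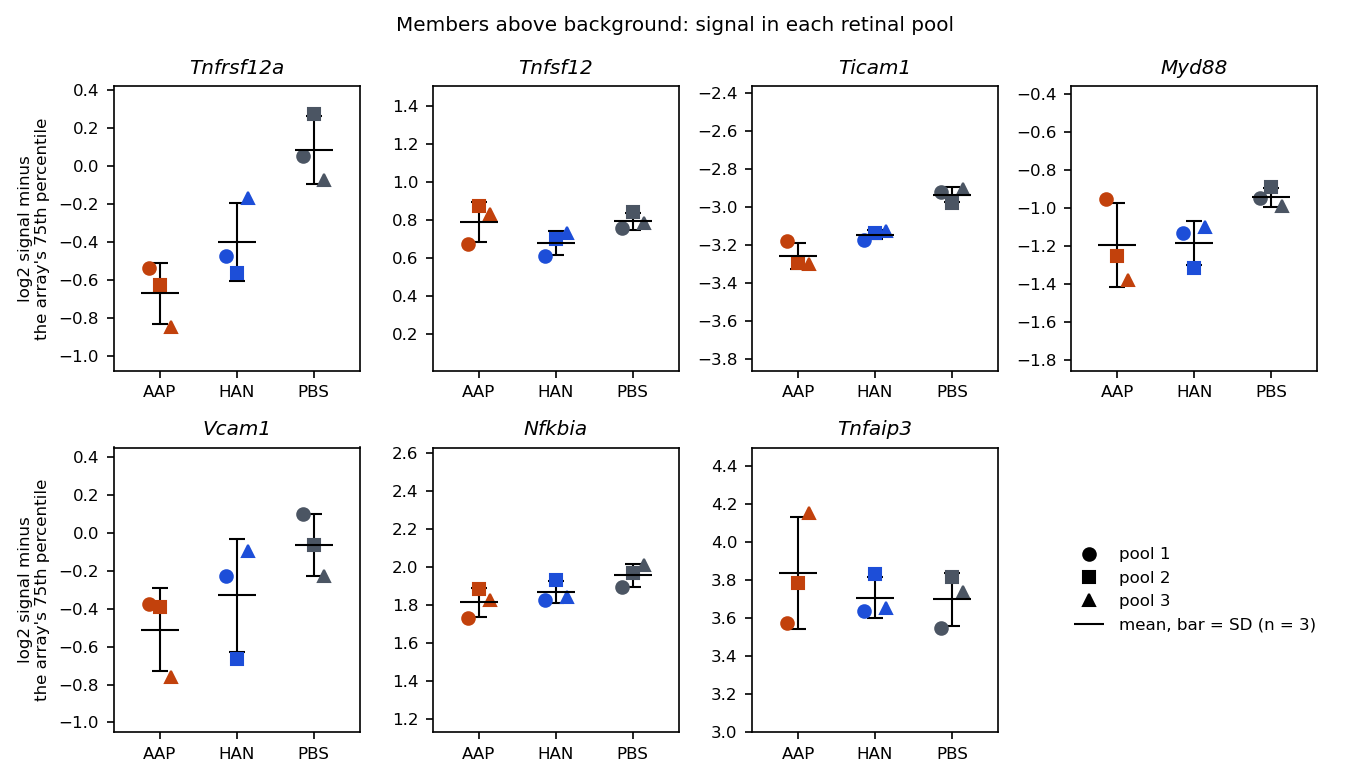
Signal of the 7 members above background in each retinal pool, as log2 signal minus the array's 75th percentile, with AAP, HAN and PBS from left to right; symbols are pools, horizontal lines are group means and bars are SD (n = 3). Every panel spans the same number of log2 units, and the AAP and HAN points of Tnfrsf12a and Ticam1 lie under all 3 PBS points.

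The stretches of 250 bases before the transcription start of Tnfrsf12a and Ticam1 are shown because these 2 genes were picked together for their values. They come from RefSeq on the build GRCm38.p6, at chr17:23677450-23677699 for Tnfrsf12a and chr17:56276768-56277017 for Ticam1, both on the minus strand and written 5′ to 3′ on it. Capitals mark the GC box GGGCGG, on either strand, a motif that was looked for after these sequences had been seen.
Tnfrsf12a: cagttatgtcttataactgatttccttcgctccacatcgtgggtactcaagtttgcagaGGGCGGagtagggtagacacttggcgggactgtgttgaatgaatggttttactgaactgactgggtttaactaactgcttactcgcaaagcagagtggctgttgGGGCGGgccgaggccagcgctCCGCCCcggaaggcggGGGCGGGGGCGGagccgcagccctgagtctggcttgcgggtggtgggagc
Ticam1: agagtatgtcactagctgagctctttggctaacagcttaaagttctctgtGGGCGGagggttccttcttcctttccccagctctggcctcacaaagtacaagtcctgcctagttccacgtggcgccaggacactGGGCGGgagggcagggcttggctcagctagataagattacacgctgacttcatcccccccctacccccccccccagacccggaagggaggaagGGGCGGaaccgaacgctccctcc
The Tnfrsf12a stretch held 5 such matches and the Ticam1 stretch 3, the nearest of them beginning 44 and 23 bases before the start. The motif was in 7 of the 9 stretches found for 8 of the 10 members, and in 32.7% of all 32851 stretches of that length.

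The NF-kB consensus, searched by that name on both strands, was in neither of these stretches but in 2 of the 9, that of Nfkbia and one of the 2 stretches of Tnfaip3, which are shown for that reason. The other Tnfaip3 stretch, at chr10:19011964-19012213, held no match. The share of all stretches with a match was 3.90%. Nfkbia lies at chr12:55492648-55492897 and Tnfaip3 at chr10:19015411-19015660, both on the minus strand of GRCm38.p6, with the NF-kB matches in capitals.
Nfkbia: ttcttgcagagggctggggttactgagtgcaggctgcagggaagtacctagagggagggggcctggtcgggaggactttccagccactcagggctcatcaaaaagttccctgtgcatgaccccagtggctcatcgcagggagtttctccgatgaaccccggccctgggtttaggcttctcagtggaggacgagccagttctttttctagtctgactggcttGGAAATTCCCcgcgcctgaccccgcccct
Tnfaip3: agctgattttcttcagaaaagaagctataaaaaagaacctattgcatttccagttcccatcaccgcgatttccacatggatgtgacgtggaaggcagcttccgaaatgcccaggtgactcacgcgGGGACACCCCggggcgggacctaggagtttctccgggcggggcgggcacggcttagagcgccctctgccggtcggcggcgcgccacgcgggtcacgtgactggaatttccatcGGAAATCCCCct
The Nfkbia match began 29 bases before the start and the nearer of the 2 Tnfaip3 matches 12 bases before it. A match describes the letters and is neither a bound site nor a cause, and Tnfsf12 and Vcam1 were not matched in the table.

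The receptor and its ligand had different values. Tnfrsf12a stood at -0.53, -0.63 and -0.85 in AAP pools 1, 2 and 3, at -0.47, -0.56 and -0.17 in HAN pools 1, 2 and 3, and at 0.05, 0.28 and -0.08 in PBS pools 1, 2 and 3. The lowest pool was AAP 3, and of the treated pools HAN 3 came nearest to PBS. AAP minus PBS was -0.75 (SE 0.14), a signal 1.69-fold lower in AAP, and AAP minus HAN was -0.27, with AAP 1 inside the HAN range. HAN minus PBS was -0.48 (95% interval -0.81 to -0.16), 1.40-fold lower in HAN, with a limma adjusted p of 0.417. That comparison rests on the same PBS pools against which the gene had been picked.

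The ligand Tnfsf12 showed no such shift. Its brighter probe stood at 0.67, 0.87 and 0.83 in AAP pools, at 0.61, 0.70 and 0.73 in HAN pools and at 0.75, 0.84 and 0.78 in PBS pools. The AAP pools overlapped PBS, and AAP minus PBS was -0.0024 (95% interval -0.17 to 0.16; limma adjusted p 0.997), an interval that spans changes of up to 1.12-fold in either direction. All HAN pools of this probe were under all PBS pools, by -0.11 in the mean (95% interval -0.28 to 0.05; limma adjusted p 0.639). The dimmer probe did not show this: it stood at 0.40, 0.55 and 0.79 in AAP pools, at 0.35, 0.51 and 0.45 in HAN pools and at 0.24, 0.46 and 0.52 in PBS pools, and all 3 groups overlapped. The probes also differed in sign in both comparisons with PBS, the dimmer one giving 0.18 in AAP and 0.03 in HAN.

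Of the cytokines, Tnf and Il1b were at the edge of detection. Tnf, the founding ligand of the family, has 10 replicate spots on each array, and HAN 3 was the sole array on which it was well above background. Il1b, a cytokine of activated microglia and macrophages, was above background on 0 of 3 AAP arrays, 2 of 3 HAN arrays and 2 of 3 PBS arrays. Its mean over 10 replicate spots, some of which were left out as outliers, was -6.96, -6.43 and -7.99 in AAP pools, -6.00, -5.57 and -6.45 in HAN pools and -4.60, -6.76 and -5.83 in PBS pools. AAP and PBS overlapped through PBS 2. The dimmest spot well above background on each AAP array gave a reference level, and Il1b was under it on all 3. Against the mean of that level, the Il1b mean was 1.47-fold higher in PBS and 1.22-fold higher in HAN. Each mean was over all 3 arrays, of which 2 measured it. On PBS 2 Il1b was above that array's own level of -6.82 without counting as detected, so the ratios are not strict bounds. Without PBS 1 the PBS mean, -6.30, was under the AAP level of -6.29, and without HAN 2 the ratio for HAN was 1.05-fold. These ratios were not tested, and for Tnf the corresponding ratios were under 1, so no fold is given.

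The adaptors Ticam1 and Myd88 differed in how tightly their pools grouped. Ticam1, which carries signals of Toll-like receptors to interferon regulatory factors as well as to NF-kB, stood at -3.18, -3.29 and -3.30 in AAP pools, at -3.17, -3.13 and -3.13 in HAN pools and at -2.92, -2.98 and -2.90 in PBS pools. The 3 groups did not overlap one another, although AAP 1 and HAN 1 nearly met. AAP minus PBS was -0.32 (SE 0.06), 1.25-fold lower in AAP, and AAP minus HAN was -0.11. HAN minus PBS was -0.21 (95% interval -0.35 to -0.08), 1.16-fold lower in HAN, with a limma adjusted p of 0.401 and the same shared PBS pools. Ticam1 is dim, and its size depends on the background correction: normexp, a convolution model with an offset of 50, gave -0.15 for AAP minus PBS. The same setting gave 0.25 for HAN minus PBS with HAN 3 at -1.68, an array on which 8 spots lay far below their local background. Without spots of outlying background, the AAP pools still lay under all PBS pools (-2.84, -2.94 and -2.78, against -2.73, -2.74 and -2.65), and AAP minus HAN turned to 0.03.

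Myd88, the adaptor of most Toll-like receptors and of interleukin-1 receptors, has 10 replicate spots on an array, whose SD was at most 0.07. It stood at -0.95, -1.25 and -1.38 in AAP pools, at -1.14, -1.32 and -1.10 in HAN pools and at -0.95, -0.89 and -0.99 in PBS pools. AAP 1 lay within the PBS range, while AAP 2, AAP 3 and all HAN pools lay under it. AAP minus PBS was -0.25 (95% interval -0.52 to 0.02; limma adjusted p 0.734) and HAN minus PBS -0.24 (95% interval -0.51 to 0.03; limma adjusted p 0.551). Between the peptides the difference was -0.01 (95% interval -0.28 to 0.26; limma adjusted p 0.975). The 4 arrays of slide 1 are AAP 1 and the 3 PBS arrays, and those are the arrays with the highest Myd88 values, while all 5 arrays of the other slides were lower.

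The inhibitors Nfkbia and Tnfaip3 are both induced by NF-kB and both limit it. Their differences from PBS had opposite signs, but every interval spanned 0. With slide as a fixed block both were below PBS, at -0.22 (Nfkbia) and -0.13 (Tnfaip3) in AAP and at -0.20 and -0.36 in HAN. In that fit AAP meets PBS through the single array AAP 1, and HAN is linked to PBS through it, so these values have no replicate. Nfkbia stood at 1.73, 1.89 and 1.83 in AAP pools, at 1.83, 1.93 and 1.85 in HAN pools and at 1.89, 1.97 and 2.01 in PBS pools. The AAP pools were all under the PBS pools, with AAP 2 nearly at the level of PBS 1, and the HAN pools overlapped them. AAP minus PBS was -0.14 (95% interval -0.30 to 0.01; limma adjusted p 0.734) and HAN minus PBS -0.09 (95% interval -0.24 to 0.07; limma adjusted p 0.701). Tnfaip3 stood at 3.57, 3.78 and 4.15 in AAP pools, at 3.64, 3.83 and 3.65 in HAN pools and at 3.54, 3.81 and 3.74 in PBS pools. The groups overlapped, and a single pool, AAP 3, stood out above the rest after scaling. Before scaling, the Tnfaip3 signal of AAP 3, 23780 units, was the lowest of all arrays. The 75th percentile of AAP 3, 1340 units, was also the lowest, so its high value is not read as a rise. For Tnfaip3, AAP minus PBS was 0.14 (95% interval -0.21 to 0.48; limma adjusted p 0.869) with AAP 3 and -0.02 without it. HAN minus PBS was 0.0071 (95% interval -0.34 to 0.35; limma adjusted p 0.992).

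Of the adhesion molecules only Vcam1, the ligand of an integrin on lymphocytes and monocytes, could be tested. Its brighter probe stood at -0.38, -0.39 and -0.76 in AAP pools, at -0.23, -0.67 and -0.10 in HAN pools and at 0.10, -0.06 and -0.23 in PBS pools. AAP pools were all under PBS pools, whereas in HAN one pool, HAN 2, was low and the others overlapped PBS. AAP minus PBS was -0.45 (95% interval -0.85 to -0.05), 1.36-fold lower in AAP, and did not pass after adjustment (limma adjusted p 0.711). The dimmer probe also had all AAP pools under all PBS pools, at -5.36, -5.21 and -5.43 in AAP pools, -4.69, -5.44 and -5.29 in HAN pools and -4.54, -4.80 and -4.91 in PBS pools. Its separation depended on the background correction: with normexp AAP 3, at -3.83, was above all PBS pools (-3.95, -3.94 and -3.97). For that probe AAP minus PBS was -0.58 (95% interval -1.03 to -0.14; limma adjusted p 0.718), and HAN minus PBS was -0.39 (95% interval -0.84 to 0.05; limma adjusted p 0.575), with HAN 2 and HAN 3 below every PBS pool. HAN minus PBS of the brighter probe was -0.27 (95% interval -0.67 to 0.13; limma adjusted p 0.649) with HAN 2 and -0.10 without it. Icam1, the ligand of leukocyte integrins on inflamed endothelium, was above background on PBS 1 alone. Its ratios to a reference level set as for Il1b, on the AAP or the HAN arrays, were under 1.

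**Figure D2:**
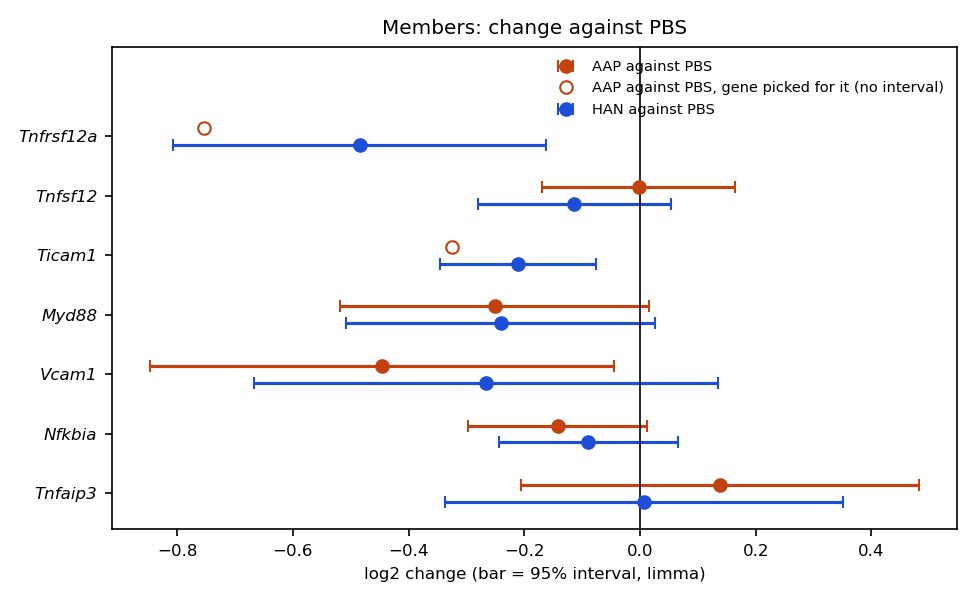
Log2 change of the 7 tested members in AAP against PBS (upper mark of each pair) and HAN against PBS (lower mark), with 95% intervals from the limma fit over 9 arrays. Open marks without an interval are the AAP values of Tnfrsf12a and Ticam1, which were picked for them. The AAP interval of Vcam1 and the HAN intervals of Tnfrsf12a and Ticam1 lie below 0. Those HAN intervals rest on the same PBS pools against which the genes were picked. None of the tested values passed after adjustment over 23889 genes.

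Over the 5 tested members that were not picked for low AAP values, 4 were below 0 in AAP against PBS, among them Tnfsf12 at -0.0024, and 4 were below 0 in HAN against PBS, beside 49.1% and 48.6% of all genes. Tnfsf12 counts in both by its brighter probe alone, since its dimmer probe gave 0.18 in AAP and 0.03 in HAN. Their median change was -0.14 in AAP and -0.11 in HAN, against 0.0032 and 0.0049 for all genes, and normexp gave -0.09 for AAP. Both comparisons use the same 3 PBS pools. Between AAP and HAN 3 of the 5 were below 0, beside 49.7% of all genes, with a median of -0.01. Including the picked genes lowers the AAP figures by the choice itself and can lower the HAN figures through the shared PBS pools. With them, the median of the 7 was -0.25 in AAP and -0.21 in HAN. It came to -0.16 in AAP without AAP 3 and to -0.12 in HAN without HAN 2, and normexp gave -0.15 in AAP and -0.11 in HAN. By pool, and with the picked genes counted, 7 of the 7 were under their PBS mean in AAP 1 (55.7% of all genes), 5 in AAP 2 (50.1%) and 5 in AAP 3 (46.6%). The counts were 7 in HAN 1 (55.5%), 6 in HAN 2 (55.3%) and 7 in HAN 3 (43.8%), and among the PBS pools 5 in PBS 1 (56.0%), 1 in PBS 2 (41.3%) and 4 in PBS 3 (51.5%).

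For the peptides themselves, 7 differences between AAP and HAN were compared at the same dose and day. The tested differences of Myd88, Nfkbia, Tnfaip3, Tnfsf12 and Vcam1 lay between -0.18 and 0.13, with limma adjusted p-values over all genes of 0.622 to 0.975. The widest of their intervals, that of Vcam1, ran from -0.58 to 0.22, so differences of that size between the peptides were not resolved with 3 pools a group.

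Slides divide the arrays unevenly. Slide 1 held AAP 1 and the 3 PBS arrays, slide 2 held AAP 2, AAP 3, HAN 1 and HAN 2, and slide 3 held HAN 3, so no slide held both HAN and PBS. Within slide 1, AAP 1 minus the PBS mean was -0.62 for Tnfrsf12a, -0.25 for Ticam1, -0.31 for Vcam1, -0.22 for Nfkbia, -0.01 for Myd88, -0.12 for Tnfsf12 and -0.13 for Tnfaip3. AAP is a single array there, so these differences have no replicate. Within slide 2, AAP minus HAN was -0.22 for Tnfrsf12a, -0.14 for Ticam1, -0.13 for Vcam1, -0.02 for Nfkbia, -0.09 for Myd88, 0.20 for Tnfsf12 and 0.24 for Tnfaip3. With slide as a fixed block, which links HAN to PBS only through AAP, HAN minus PBS was -0.40 for Tnfrsf12a, -0.10 for Ticam1, -0.18 for Vcam1, -0.20 for Nfkbia, 0.08 for Myd88, -0.32 for Tnfsf12 and -0.36 for Tnfaip3.

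Markers of some cell types were also lower in the peptide pools. Microglia and macrophage markers, 15 of 16 measured, were lower than PBS in 15 of 15 in AAP and in HAN, and their summed signal, in multiples of the array's 75th percentile, was 8.10 to 13.2 in AAP pools, 7.84 to 13.9 in HAN pools and 15.5 to 17.0 in PBS pools. Of them 14 were above background on all arrays, the exception being Ptprc. Reactive glia markers were lower in 12 of 12 with both peptides, with sums of 6.93 to 17.5 in AAP pools, 15.4 to 25.2 in HAN pools and 25.2 to 31.4 in PBS pools. AAP 3 had the lowest reactive glia mean, at -2.58 from the PBS mean on the log2 scale, as well as the lowest Tnfrsf12a, Myd88 and bright-probe Vcam1 values. Its Ticam1 value (-3.30) was hardly under that of AAP 2 (-3.29). With normexp AAP 3 had instead the highest Ticam1 value of the AAP pools (-2.79, against -2.86 and -2.95). Tnfaip3 was highest in AAP 3 after scaling and lowest there before it. HAN 2, the HAN pool with the lowest microglia mean (-1.14), had the lowest HAN values of Tnfrsf12a, Myd88 and Vcam1. Other members did not follow: HAN 2 had the highest HAN values of Nfkbia (1.93) and Tnfaip3 (3.83), and Ticam1 was lowest in HAN 1 (-3.17). Among AAP pools, Nfkbia (1.73) and the brighter Tnfsf12 probe (0.67) were lowest in AAP 1. The part of these cells in the members' values was not tested.

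Markers of neighbouring tissues differed between pools of a group. Skeletal muscle markers, 10 of 12 measured and 8 of those above background on all arrays, stood 5.96 above the PBS mean in AAP 1 and 4.69 in AAP 3, against -0.30 in AAP 2, with sums of 2.92 to 117 in AAP pools, 2.71 to 3.01 in HAN pools and 2.42 to 2.75 in PBS pools. In AAP 2 alone, where they were near the PBS mean, the difference from PBS was -0.71 for Tnfrsf12a, -0.36 for Ticam1, -0.31 for Myd88, -0.33 for Vcam1, -0.07 for Nfkbia, 0.08 for Tnfsf12 and 0.09 for Tnfaip3. AAP 2 had in turn the highest mean of the 12 lens markers, all above background on every array, which stood at -1.42, 2.32 and -2.04 from the PBS mean in AAP pools, at 0.59, 1.47 and 1.30 in HAN pools and at 1.22, -2.25 and 1.04 in PBS pools. Lens sums were 123 to 1413 in AAP pools, 717 to 1016 in HAN pools and 98.4 to 885 in PBS pools. Markers of cornea, iris and ciliary body, 11 of 12 measured, were high in AAP 1 (2.32) and PBS 1 (1.46) and below the PBS mean on the other 7 arrays, with sums of 8.95 to 102 in AAP pools, 10.3 to 17.9 in HAN pools and 7.62 to 39.5 in PBS pools. The part of these tissues in the members' values was not tested. Endothelial markers, 11 of 12 measured, summed to 13.7 to 17.1 in AAP pools, 14.8 to 16.2 in HAN pools and 14.9 to 15.3 in PBS pools, so AAP and HAN both straddled PBS. All 12 rod markers were above background on every array, and 5 were lower than PBS in AAP (median 0.0020) and 11 in HAN (median -0.17). Neutrophil and T cell markers, 8 of 12 measured, were lower in 8 in AAP (median -0.09) and in 7 in HAN (median -0.16). The 75th percentile used for scaling was lowest on AAP 3, at 1340 units of processed signal, and highest on PBS 1, at 2349; 71.6% to 79.2% of spots were well above background, and arrays correlated at 0.980 to 0.995 within a group and at 0.979 to 0.995 between groups (Pearson's r across genes).

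**Figure D3:**
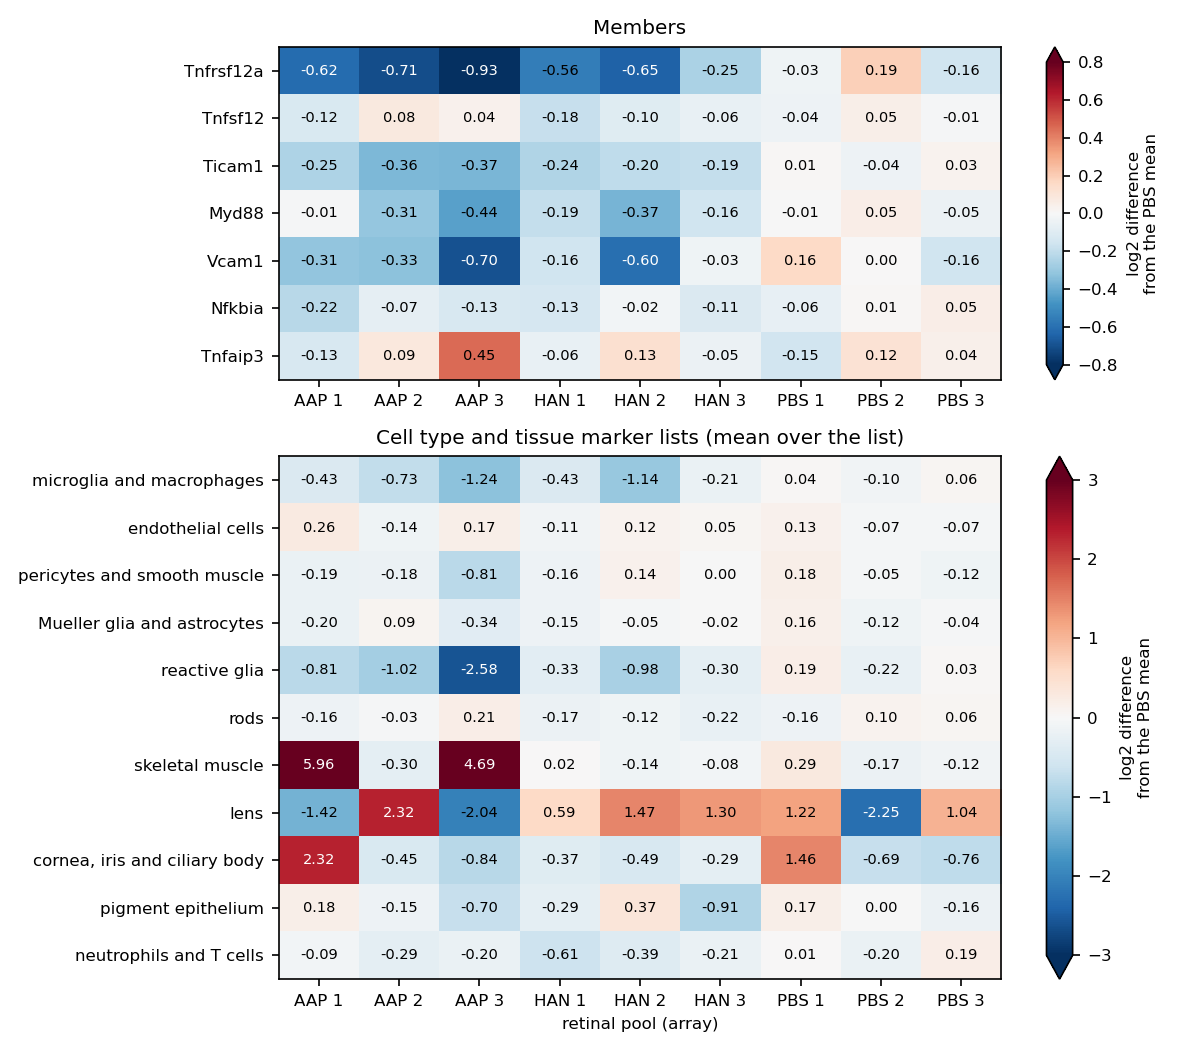
Log2 difference of each retinal pool from the PBS mean for the 7 tested members (top) and for cell and tissue marker lists, averaged over each list (bottom); red is higher and blue lower, and the lower colour scale stops at 3. Tnfrsf12a is lower than the PBS mean in every AAP and HAN pool, reactive glia markers are lowest in AAP 3 at -2.58, and skeletal muscle is high in AAP 1 and AAP 3.

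The rest of the pathway was described through 7 gene lists, none of which holds a member, and no gene in them passed the threshold in any comparison. The smallest limma adjusted p of a list was 0.632 to 0.731 in AAP against PBS and 0.371 to 0.529 in HAN against PBS. A gene that reached the test only because it was bright in one group had to differ, so the counts below describe and do not support.

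Among TNF ligands 7 of 16 were tested, with 5 below and 2 above PBS in AAP (median -0.17) and 6 below and 1 above in HAN (median -0.22). Ltb, a subunit of the lymphotoxin that binds Ltbr, stood at -5.25, -5.84 and -5.55 in AAP pools, -5.44, -5.42 and -5.69 in HAN pools and -5.11, -4.93 and -5.14 in PBS pools. All AAP and HAN pools of Ltb were under PBS, by -0.49 in AAP (limma adjusted p 0.674) and -0.46 in HAN (limma adjusted p 0.444). Tnfsf9, the ligand of a costimulatory receptor on T cells, was 0.26 above PBS in HAN without overlap and 0.13 above it in AAP with overlap. Cd70 was at -0.31 in AAP, above background there on 1 of 3 arrays, and -0.25 in HAN, and Tnfsf15 at -0.13 and -0.22, all overlapping PBS.

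Among TNF receptors 19 of 24 were tested, with 14 below and 5 above PBS in AAP (median -0.05) and 9 below and 10 above in HAN (median 0.04). Tnfrsf1b, the receptor for TNF found chiefly on immune and endothelial cells, stood at -6.72, -6.34 and -8.01 in AAP pools, -5.68, -5.83 and -5.80 in HAN pools and -5.17, -5.79 and -5.19 in PBS pools. It was well above background on all HAN and PBS arrays and on no AAP array, and it reached the test through HAN and PBS. Against the reference level of the AAP arrays used for Il1b, its mean was 1.87-fold higher in PBS and 1.43-fold higher in HAN. These ratios are not strict bounds and were not tested. The limma adjusted p of 0.632 belongs to AAP minus PBS of -1.64, fitted to AAP values under background, and nothing is read from it. Tnfrsf10b, the mouse death receptor for Tnfsf10, went the other way: it was 0.29 above PBS in AAP and 0.36 above it in HAN, without overlap in either (limma adjusted p 0.674 in AAP and 0.381 in HAN). Cd40 was at -0.64 in AAP, above background there on 1 of 3 arrays, and at -0.27 in HAN. Tnfrsf1a, the receptor for TNF present on most cells, was at -0.64 in AAP and -0.06 in HAN, with overlap in both. Tnfrsf13c was at -0.05 in AAP and 0.25 in HAN, a value that its other probe, at -0.11 in HAN, did not share.

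Among the proteins that carry the signal from TNF receptors, 12 of 14 were tested, and 6 were below and 6 above PBS in AAP (median 0.0051) and in HAN (median 0.010). Birc2, a ubiquitin ligase at the receptor, was -0.17 in AAP and in HAN, without overlap with PBS. Fadd, which links death receptors to caspases, was at -0.23 in AAP, below both HAN and PBS without overlap, and at -0.0038 in HAN. Ripk1 was at -0.25 in AAP and -0.19 in HAN, and Tradd, the adaptor next to it, at -0.02 and 0.16. Traf2 was at 0.18 in AAP and -0.10 in HAN by its brightest probe, whereas a second probe gave -1.05 and -1.30, so no direction is taken for it.

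Among Toll and interleukin-1 receptors and their signalling proteins, the route that Ticam1 and Myd88 serve, 22 of 31 were tested. In AAP 16 were below and 6 above PBS (median -0.14), and in HAN 13 were below and 9 above (median -0.03). Tlr13, a sensor of bacterial ribosomal RNA in mice, was at -0.14 in AAP and -0.23 in HAN, without overlap in either. Tlr2 stood at -3.26, -3.80 and -5.40 in AAP pools, -3.39, -3.76 and -3.69 in HAN pools and -2.80, -3.14 and -3.52 in PBS pools, so AAP 3 was far under the rest and the AAP and PBS ranges overlapped. Tbk1, the kinase that acts after Ticam1, was at -0.14 in AAP and 0.14 in HAN. Irak4, the kinase that acts after Myd88, was at -0.48 in AAP, above background there on 1 of 3 arrays, and at -0.15 in HAN. Tlr7 was at -0.12 and -0.29, while its second probe gave -1.05 and -0.81.

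Among NF-kB subunits, kinases and inhibitors 20 of 21 were tested, with 14 below and 6 above PBS in AAP (median -0.08) and 13 below and 7 above in HAN (median -0.03). Bcl3, a nuclear relative of Nfkbia, had the widest spread over AAP pools of the genes named here, at -0.96, -1.79 and -4.01 in AAP pools, -1.43, -2.47 and -0.42 in HAN pools and -0.31, 0.24 and 0.03 in PBS pools. No AAP or HAN pool overlapped PBS, and the differences were -2.24 in AAP (95% interval -4.06 to -0.42; limma adjusted p 0.687) and -1.43 in HAN (95% interval -3.24 to 0.39; limma adjusted p 0.592). Relb, the subunit of the alternative pathway that Tnfrsf12a and Ltbr engage, was -0.19 in AAP and in HAN without overlap by its brightest probe, whereas its other probe gave -0.21 in AAP and 0.03 in HAN. Nfkbie, an inhibitor like Nfkbia, was at -0.22 in AAP and -0.03 in HAN. Tax1bp1, a partner of Tnfaip3, was at -0.15 and -0.09, and Otulin at -0.13 and -0.18.

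Genes that NF-kB induces had the lowest list medians: 10 of 17 were tested, 8 below and 2 above PBS in AAP (median -0.81) and all 10 below in HAN (median -0.37). Lcn2, an acute-phase protein of reactive glia, stood at 0.44, -0.32 and -1.63 in AAP pools, 0.11, -0.22 and 0.75 in HAN pools and 1.19, 1.09 and 1.25 in PBS pools. Its 3 PBS pools were close together and above all others, and the differences were -1.68 in AAP (95% interval -2.80 to -0.57; limma adjusted p 0.669) and -0.97 in HAN (95% interval -2.08 to 0.15; limma adjusted p 0.563). Gadd45b, a stress response gene, was at -0.93 in AAP and -0.59 in HAN, without overlap in either. Ccl2, the monocyte chemoattractant, was at -2.25 in AAP, above background on 2 of 3 AAP arrays, and at -0.37 in HAN, with overlap in both. Csf1, a growth factor of microglia, was at -0.69 in AAP without overlap and -0.13 in HAN, and Ccl5 at -0.96 in AAP with overlap and -1.01 in HAN without. Lcn2 is also one of the 12 reactive glia markers, all of which were lower than PBS with both peptides. Whether those markers and this list moved together over the pools was not tested.

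Among leukocyte adhesion genes other than the members, 25 of 27 were tested, with 12 below and 13 above PBS in AAP (median 0.05) and 15 below and 10 above in HAN (median -0.03). Icam5, a neuronal relative of Icam1, was higher than in every PBS pool in both, by 0.23 in AAP (limma adjusted p 0.674) and 0.28 in HAN (limma adjusted p 0.371). Itgb2, the integrin chain shared by the leukocyte receptors of Icam1, was at -0.55 in AAP without overlap and -0.34 in HAN with overlap. Itgax, its partner on dendritic cells and reactive microglia, was at -1.54 in AAP with overlap, above background on 2 of 3 AAP arrays, and -1.05 in HAN without. Cd44 was at -0.47 in AAP and 0.03 in HAN with probes that disagreed in sign, and Itgam at 0.16 and 0.42 with probes of both signs, so neither is given a direction.

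**Figure D4:**
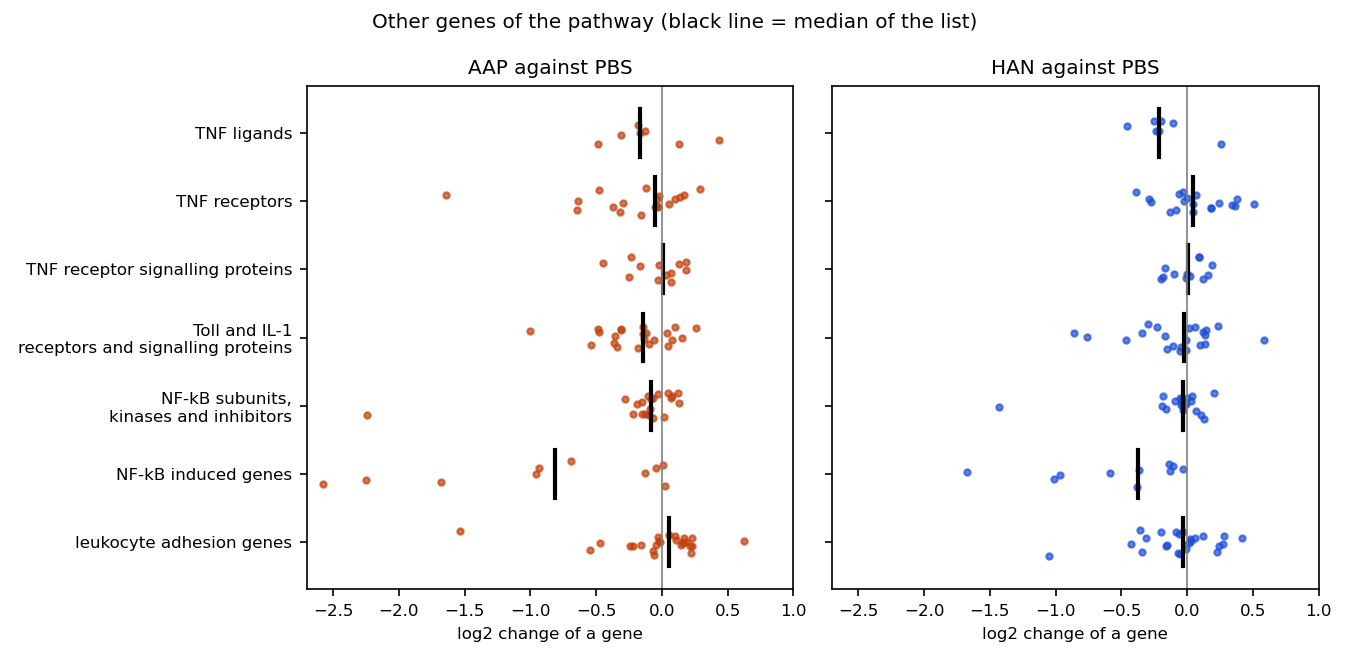
Log2 change of each tested gene of the 7 pathway lists in AAP against PBS (left) and HAN against PBS (right), with a black line at each list's median. The medians of NF-kB induced genes lie at -0.81 in AAP and -0.37 in HAN, those of TNF ligands at -0.17 and -0.22, and those of the other lists between -0.14 and 0.05.

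The genes whose pattern over the 9 arrays was most like that of Tnfrsf12a, by Pearson's r among 4422 named genes with an SD of at least 0.2, were Egr2 (0.982), Cited1 (0.949), Antxr2 (0.936), Asf1b (0.925) and Adm2 (0.923). Egr2 spread more widely, at -1.45, -1.95 and -3.18 from the PBS mean in AAP pools and -1.59, -1.88 and -0.77 in HAN pools, with HAN 1 below AAP 1, the reverse of Tnfrsf12a. For Ticam1 they were Gdf11 (0.928), Clrn1 (0.920), Clec4d (0.914), Ms4a7 (0.901) and Lyz2 (0.890). These coefficients describe 9 arrays that share groups and slides, and no p is given. Changes against PBS ranged from -2.20 (Egr2) to -0.42 (Cited1) in AAP among the genes like Tnfrsf12a, and from -2.47 (Clec4d) to -0.48 (Gdf11) among those like Ticam1. Likeness to a gene picked for low AAP values brings low AAP values with it. The SD minimum also left out genes of narrow spread, so nothing is read from the direction or size of these changes. Lyz2, a microglia and macrophage marker, is also in the marker list above.

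**Figure D5:**
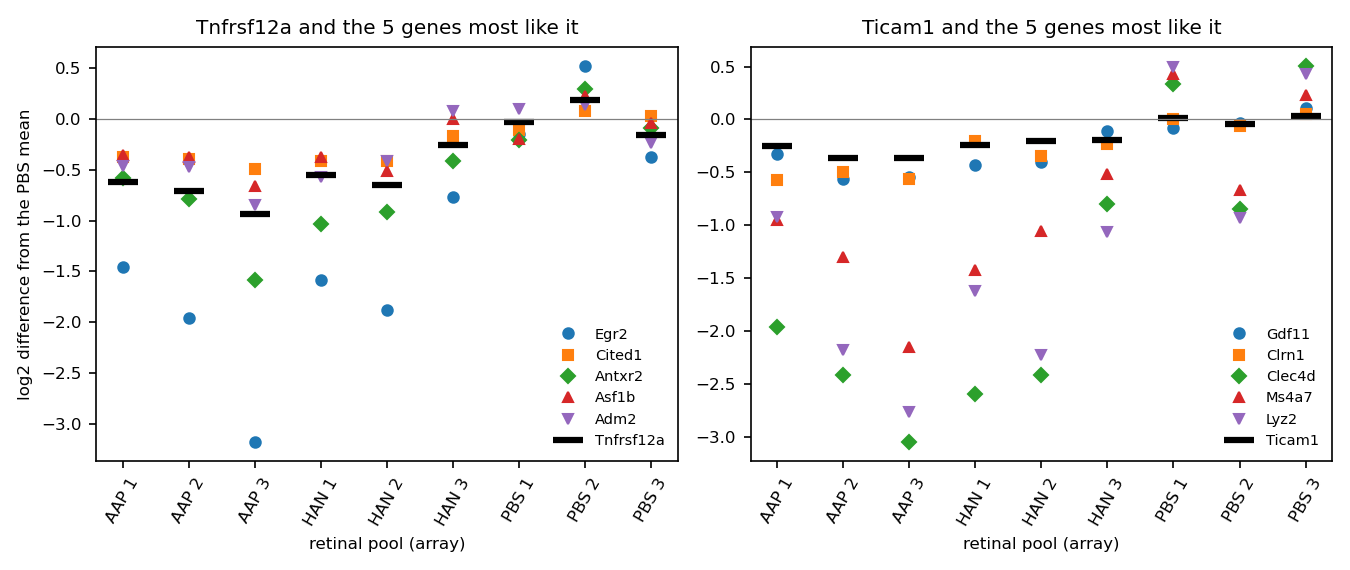
Log2 difference of each retinal pool from the PBS mean for Tnfrsf12a (left) and Ticam1 (right), as black bars, and for the 5 genes most like each by Pearson's r over 9 arrays, as coloured symbols. Egr2 and Clec4d reach lower than the member they resemble, to -3.18 and -3.05 in AAP 3.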

How the data were processed

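Retinal RNA of 9 pools was hybridised to 1-colour Agilent arrays (Cy3). The authors deposited the scanner files and 1 table of values. Feature Extraction 11.0.1.1 (protocol GE1_1100_Jul11, per the file headers) quantified each spot's intensity, a linear signal background-subtracted and detrended within the array and not normalised between arrays; the design was annotated on mm9. At least 99.7% of each column of the deposited value table equalled that intensity within a relative tolerance of 0.0001. Its column medians were 265.5, 237.6 and 164.7 (AAP), 251.1, 242.5 and 296.5 (HAN) and 298.3, 256.4 and 231.9 (PBS). Which test the authors applied was not stated in the labels.

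Control spots and outlier spots (103 to 160 on an array) were left out; no spot was saturated. From the deposited intensity, log2 intensity minus the array's 75th percentile was averaged over a probe's spots. Probes above background on all arrays of at least 1 group were kept, and a gene was represented by its brightest kept probe. Accessions were matched to RefSeq (GRCm38.p6), which named 26055 of 39429 probes with 19751 symbols; 13374 kept their accession. limma 3.58.1 (R 4.3.3) fitted a mean per group to 9 arrays (lmFit, eBayes, two-sided, Benjamini-Hochberg over 23889 genes), with 6 residual and 1.85 prior degrees of freedom. The number of arrays limits the precision.

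The members, the gene and marker lists and the alternatives were chosen with earlier results of these data known. Named genes were all members, the 4 genes of each list with the smallest p in AAP against PBS and the 2 in HAN against PBS, and the 5 genes most like Tnfrsf12a and Ticam1. The fit was tested on simulated data. Alternatives covered background correction, normalisation, the value table, the filter, probe choice, slide, replicate number and leaving out arrays. The normexp settings were added after seeing the data and use the median signal, since the mean signal is not among the columns.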

Additional observations from a re-analysis of the deposited data

How the results depend on the processing

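No member passed the limma threshold under any of 21 alternatives, and 415 of 441 member changes kept their direction and their side of the threshold, or for the picked genes their size. Part of the 441 could not change, so their number does not measure robustness. Leaving out an array of the group not compared, or blocking on replicate number, leaves a difference as it was. For members that were not picked, size was not counted: Myd88 in AAP against PBS counts as kept at -0.0077 with slide as a fixed block. The size moved for Ticam1 in AAP against PBS (-0.15 with either normexp setting, -0.25 with slide as a fixed block) and in AAP against HAN (-0.40 with normexp). Tnfrsf12a kept its sign throughout, at -0.83 to -0.62 in AAP against PBS and -0.60 to -0.39 in HAN against PBS. Genes passing in AAP against PBS (1 as reported) numbered 0 with normexp, with normexp without outlying backgrounds, with quantile normalisation, with no filter and with AAP 2 as the sole AAP array, and 46 with slide as a fixed block; leaving out an array gave 0 to 12, with 12 without AAP 2 and 1 only without AAP 1. In HAN against PBS (1) there were 0 with normexp and 2 with the slide block, and 1 to 3 when an array was left out, 3 without HAN 2 and 2 without HAN 1. In AAP against HAN (0) there were 0 to 13, 13 without AAP 2 and 1 without HAN 2. The member median counts the picked genes, which lowers it in AAP by the choice itself. In AAP against PBS it was -0.15 with either normexp setting, -0.34 with no filter and -0.31 with AAP 2 alone, and -0.36 to -0.16 leaving out an array, the ends being without AAP 1 and without AAP 3. In HAN against PBS it was -0.11 with normexp and -0.22 to -0.12 leaving out an array, -0.12 without HAN 2. In AAP against HAN it was 0.030 with normexp without outlying backgrounds, -0.15 with no filter and -0.13 to -0.053 leaving out an array. For the 5 members that were not picked, the median in AAP against PBS was -0.14 as reported, -0.09 with either normexp setting and -0.07 with AAP 2 alone. Leaving out an array gave -0.18 to -0.10 for these 5. Signs turned, all in members that did not pass or were given as descriptions, with the cause not tested. In AAP against PBS, Tnfsf12 was 0.086 over both probes, 0.078 with AAP 2 alone and -0.043 to 0.057 leaving out an array, and Tnfaip3 was -0.13 with the slide block and -0.020 to 0.27 leaving out an array. In HAN against PBS, Ticam1 was 0.25 and Tnfaip3 -0.094 with normexp, Nfkbia 0.023 with normexp without outlying backgrounds, Myd88 0.084 and Tnfaip3 -0.36 with the fixed slide block, and Tnfaip3 -0.040 with a random one and -0.070 to 0.065 leaving out an array. In AAP against HAN, Ticam1 was 0.030 and Myd88 0.035 with normexp without outlying backgrounds, Nfkbia 0.018 with AAP 2 alone, and, leaving out an array, Myd88 -0.13 to 0.082 and Tnfaip3 -0.027 to 0.26. Replicate numbers did not pair the arrays (deviations of same-numbered arrays correlated at -0.28 to 0.40), and the replicate block took genes passing to 0 in AAP against PBS and to 0 in HAN against PBS.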
